A study of Rattus norvegicus with 12 samples.

Results

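The potassium channel genes measured here were the rat genes whose symbol begins with Kcn followed by a further family letter, a set that holds the pore-forming subunits of potassium channels and many of the auxiliary subunits that assemble with them. The set was chosen with earlier results of these data known. Its members were taken by symbol, from probe sets that the array annotation gives exactly 1 symbol. Each gene was read from its probe set with the highest mean over the 12 arrays. This gave 75 genes on 126 probe sets, out of 14217 genes with 1 symbol on the array. They fall into 17 families by their prefix, with the Kcnj genes divided into KATP channels, GIRK channels and other inward rectifiers, and all 75 symbols were found in the RefSeq table of rat genes.

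Potassium channels let potassium leave the cell, which pulls the membrane potential of a neuron away from its firing threshold and shapes the length and spacing of action potentials. In the arcuate nucleus of the hypothalamus (ARC), KATP channels close when the ratio of ATP to ADP rises and so couple glucose metabolism to firing, GIRK channels open when inhibitory G protein-coupled receptors are active, and the Kcnq channels that carry the M-current are closed by receptors coupled to Gq. Astrocytes use inward rectifiers to take up the potassium that firing neurons release.

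The arrays measured RNA of the ARC of male Wistar rats aged 3 months, from 6 control and 6 recuperated animals with 1 animal per array, and asked how nutrition in early life was reflected in ARC expression in adulthood. Control offspring came from control dams, were nursed by control dams and grew up in culled litters of both sexes in equal number, whereas recuperated offspring came from dams fed a diet of 8% protein in pregnancy, were nursed by control dams in groups set up on postnatal day 3 and grew up in smaller litters that held males alone. Both groups were given standard chow, no animal carried a transgene or received a drug, and the change of diet in the womb and the change of litter size cannot be told apart in these groups. The ARC was cut by laser from stained sections, so each sample is bulk tissue in which fewer cells of a type and less RNA per cell cannot be told apart, and the RNA was amplified before hybridisation to Affymetrix rat genome arrays.

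Levels are the deposited log2 values made by robust multi-array averaging (RMA), on which a step of 1 is a doubling. Each probe set binds with its own strength, so levels of different genes were not compared as amounts of RNA, and a level was instead set against the median of its array. Those medians were 6.25 ± 0.02 (SD, n = 6) on control and 6.27 ± 0.02 (SD, n = 6) on recuperated arrays. Fold changes were taken after each array's median had been subtracted, which sets them 0.02 below the plain difference of the levels. The labelled tissue was checked by 15 ARC markers, of which 13 exceeded the array median on 6 arrays or more, although the probe set of Pomc was below it on 12 of 12. Recuperated array 4 stood apart, since the mean of the ARC markers was 1.02 above the array median there against 2.88 to 3.23 on the other arrays, and the mean of 6 markers of the neighbouring ventromedial nucleus (VMN) was 3.15 against 0.15 to 1.51. Of the 15 ARC markers, 13 had their lowest value on that array. Between the groups, 2 ARC markers had positive and 13 negative fold changes, with a median log2 fold change of -0.47. By limma 2 were lower in recuperated rats at 1.3-fold with P under 0.05, and 0 higher. These group figures include recuperated array 4. The mean of the ARC markers was 2.99 to 3.13 on control arrays and 2.88 to 3.23 on the other recuperated arrays.

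At 1.3-fold with P under 0.05, 1 of the 75 potassium channel genes was lower in recuperated than in control rats by limma, or 1.33%, a share near the 1.21% of all genes that were lower. It was Kcnj10, the inward rectifier of astrocytes, whose call did not hold after adjustment (adjusted p = 0.999 by limma) or by the methods' t-test, which placed 0 members past this threshold. By limma 0 members were higher, where 0.612% of genes were. Within the recuperated group, array 4 held the highest value of 26 of the 75 genes, or 34.7%, against 13.2% of all genes. This was not particular to the set. The same array was highest for 6 of 6 VMN markers, 6 of 12 neuron markers and 11 of 24 genes whose products work with the channels. It was highest for 1 of 10 astrocyte and 1 of 15 ARC markers.

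Across the 12 arrays the mean signal of a member's probe set ranged from 2.84 for Kcnj1, a renal inward rectifier, to 9.69 for Kcnd2, a pore subunit of the transient A-type current, with a median of 5.94. There were 23 genes above the array median on 12 of 12 arrays and 31 below it on 12 of 12. On 6 arrays or more, 30 members were above the median, or 40.0%, against 63.6% of all genes with 1 symbol. The SD of a member over the 12 arrays ranged from 0.11 for Kcne1 to 0.89 for Kcnh5, with a median of 0.36, or 0.34 without recuperated array 4.

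**Figure D1:**
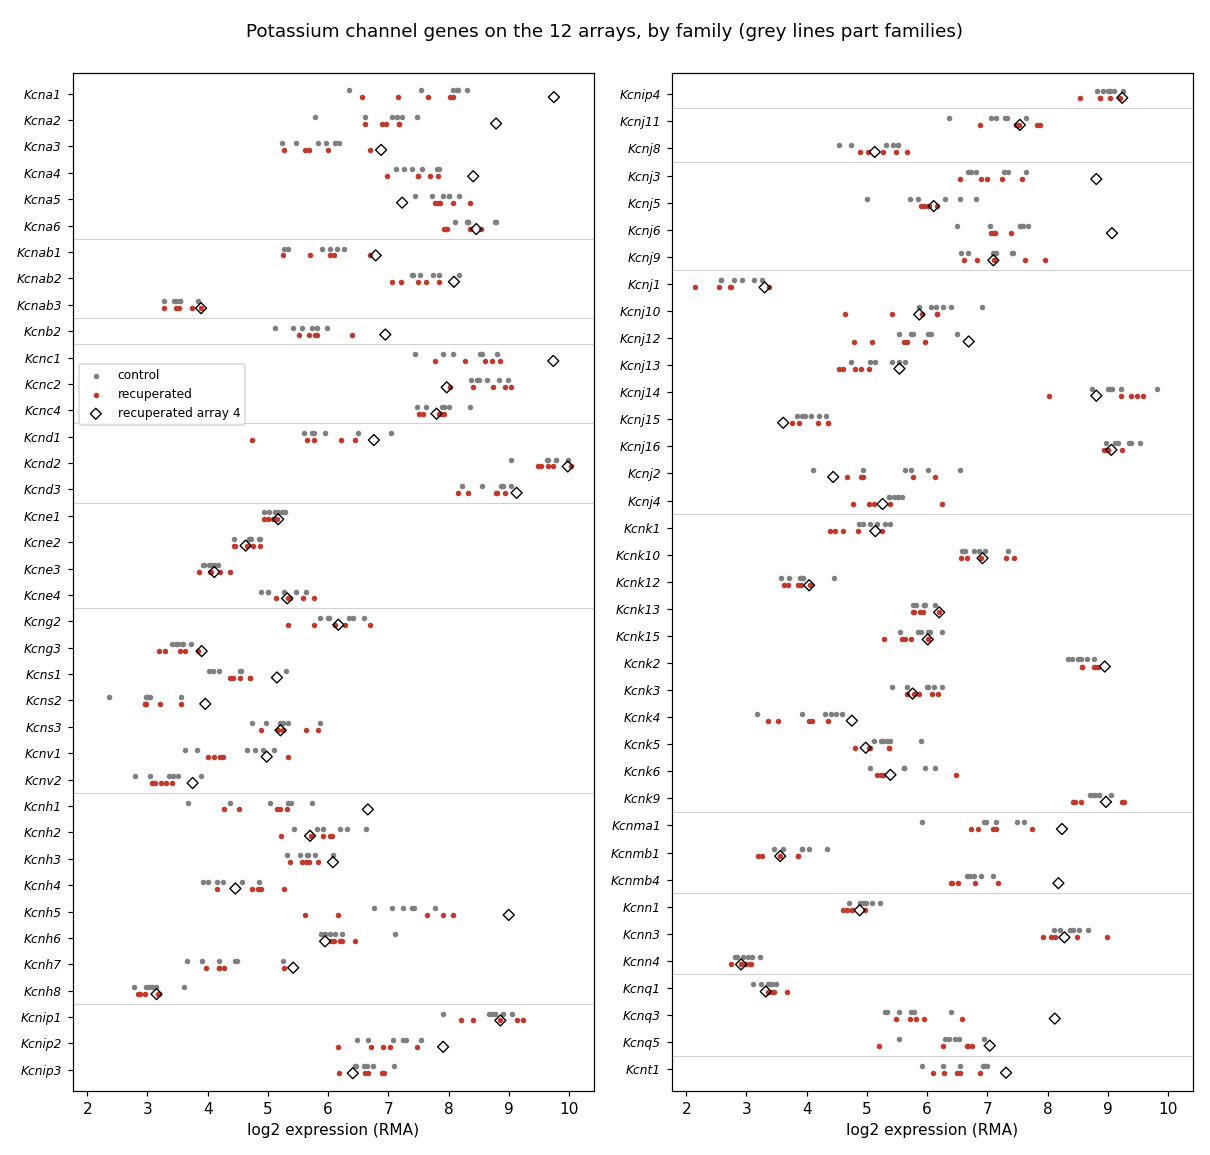
Log2 RMA level (horizontal axis) of each of the 75 genes, listed by family, with 1 point for each array: grey for 6 control arrays, red for recuperated arrays and an open diamond for recuperated array 4. The control and recuperated points overlap for each gene, and the diamond is the highest point for 26 genes, among them Kcnq3 at 8.12 and Kcna1 at 9.75.

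Among the voltage-gated families, the 3 Kcnc genes, which carry the fast delayed rectifier current of rapidly firing neurons, were above the array median on 12 of 12 arrays, as were 4 of the 6 Kcna genes and 2 of the 3 Kcnd genes. The probe sets with the highest signal in these families were those of Kcna6 at 8.32 ± 0.29, Kcnc2 at 8.58 ± 0.35 and Kcnd2 at 9.69 ± 0.27 (SD, n = 12). Of the partners of these pores, Kcnip4, which binds calcium and tunes Kcnd channels, was at 8.99 ± 0.20 and Kcnab2, a cytoplasmic subunit of Kcna channels, at 7.62 ± 0.34. The silent modifier subunits of the Kcng, Kcns and Kcnv groups and the small Kcne subunits were dim: 0 of these 11 genes was above the median on 6 or more arrays, and the highest signals were those of Kcng2 at 6.13 ± 0.38 and Kcne4 at 5.31 ± 0.27.

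Channels opened by ions and channels of the resting leak were also read. Kcnn3, an SK channel opened by intracellular calcium, had a level of 8.35 ± 0.30, and Kcnma1, the pore of the BK channel, a level of 7.16 ± 0.58 (SD, n = 12). Kcnn4, a calcium-activated channel best known from blood cells and epithelia, was at 2.97 and below the median on 12 of 12 arrays. Kcnk9, a tandem pore leak channel sensitive to external acid, had the highest signal of 11 Kcnk probe sets at 8.83 ± 0.28, while 7 of the 11 were below the median on 12 of 12. Kcnh5 at 7.34 ± 0.89, Kcnq5 at 6.39 ± 0.54, Kcnb2 at 5.81 ± 0.48 and the sodium-activated Kcnt1 at 6.60 ± 0.42 had the highest signal of their families.

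In the comparison of the groups over 14217 genes, the methods' t-test placed 0.816% of genes lower and 0.394% higher at 1.3-fold and P under 0.05, and 0 members. At P under 0.05 alone limma gave 1 member against 2.91% of genes, and the methods' t-test gave 2, Kcnj16 and Kcnn1, both under 1.3-fold, against 3.32% of genes. After Benjamini-Hochberg adjustment over 31042 probe sets limma called 0 members and 0% of probe sets, although 1071 probe sets had an unadjusted P under 0.05, and the methods' t-test called 0 members as well. The smallest adjusted p of a member was 0.999 by limma. Fold changes were positive for 34 members and negative for 41, so that 54.7% were negative against 60.3% of all genes. The median log2 fold change was -0.04 for members and -0.04 for all genes, and the median size without sign was 0.13 and 0.11.

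The groups overlapped for all 75 genes, with 0 members whose recuperated arrays lay wholly above or below the control arrays. The same count was not made over all genes, so it has no background share and describes these members alone. The 95% interval of the fold change lay within 2-fold in either direction for 67 members and within 1.3-fold for 9, among them Kcnip4, Kcnh3 and the leak channel Kcnk13, which were picked from the 9 after their values were seen. The other 8 intervals reached beyond 2-fold, and for 6 of these genes (Kcnq3, Kcna1, Kcna2, Kcnc1, Kcnh1 and Kcnh5) recuperated array 4 held the highest value.

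**Figure D2:**
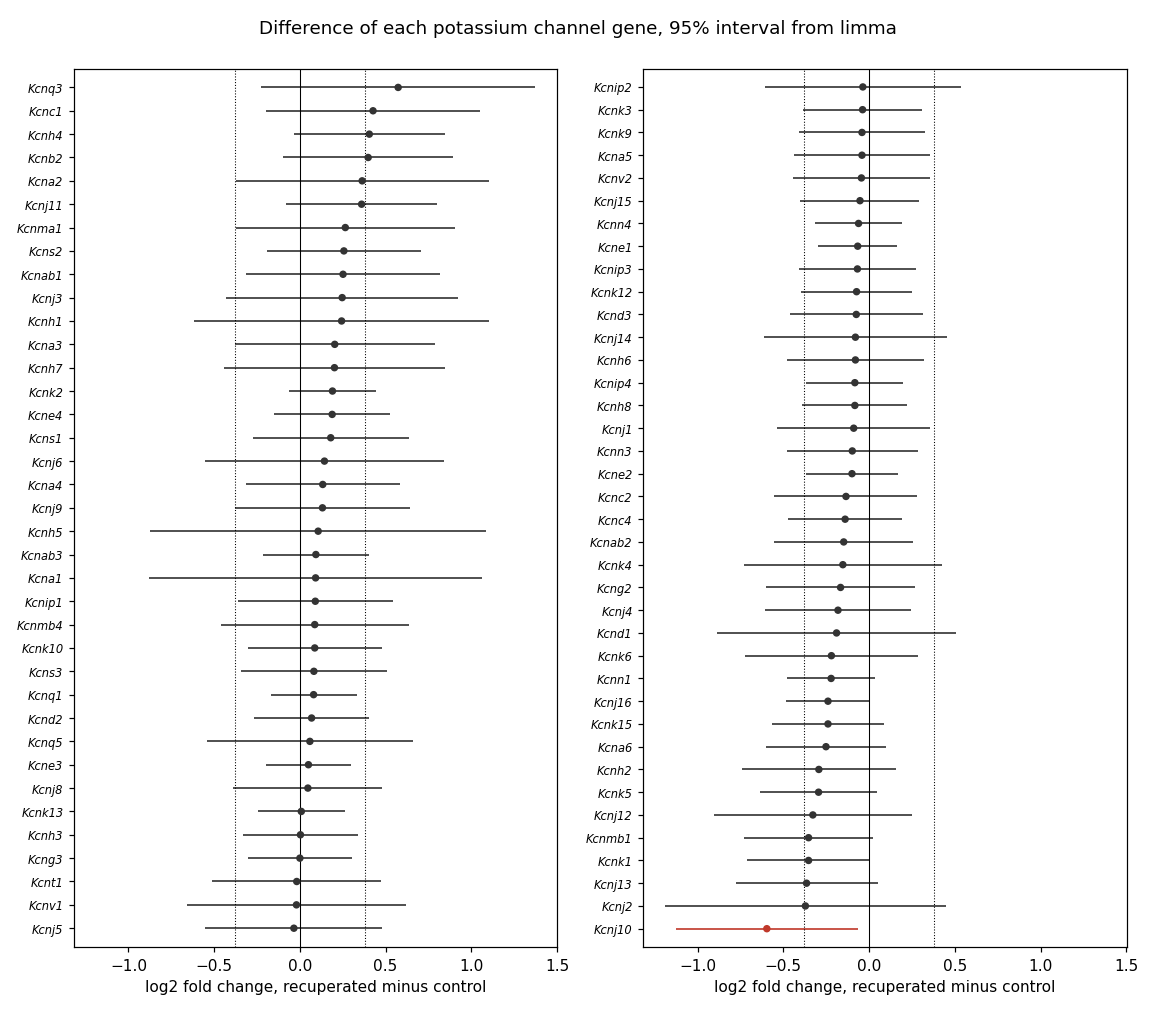
Log2 fold change of each of the 75 genes, recuperated minus control (point), with its 95% interval from limma (line), ordered from the most positive to the most negative; dotted lines mark 1.3-fold. Kcnj10, in red, is the gene past 1.3-fold with P under 0.05, and the interval of 67 genes stays within 2-fold.

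KATP channels pair a pore subunit, Kcnj11 in most neurons and Kcnj8 in vascular smooth muscle and pericytes, with a sulphonylurea receptor, Abcc8 or Abcc9. None of these 4 genes passed the threshold in either direction. Kcnj11 ranged from 6.37 to 7.64 on control arrays with a median of 7.22, and from 6.88 to 7.87 on recuperated arrays with a median of 7.53. Recuperated arrays 1 and 2 lay above all controls, the other 4 overlapped with them, and Kcnj11 was above the array median on 12 of 12. Its log2 fold change was 0.36 (SE 0.21, 95% interval -0.08 to 0.80), with an exact permutation p of 0.132 (two-sided). The other probe sets of Kcnj11 gave 0.10 and -0.24, so its direction depends on the probe set read.

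Kcnj8 was below the array median on 12 of 12 arrays, at 5.18 ± 0.43 in control and 5.24 ± 0.30 in recuperated rats (SD, n = 6). Its log2 fold change was 0.05 (exact permutation p = 0.842). Abcc8, the receptor subunit of the neuronal and beta cell channel, was at 6.33 ± 0.18 and 6.34 ± 0.38, with a fold change of -0.01 (exact permutation p = 0.981). Abcc9, the receptor subunit of the vascular channel, was at 4.01 ± 0.74 and 3.97 ± 0.84, with a fold change of -0.05 (exact permutation p = 0.909). The 95% interval of Abcc8 ran from -0.38 to 0.37, which is narrower than that of Abcc9 at -0.89 to 0.78. In the RefSeq order of genes Kcnj11 stands next to Abcc8 and Kcnj8 next to Abcc9.

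**Figure D3:**
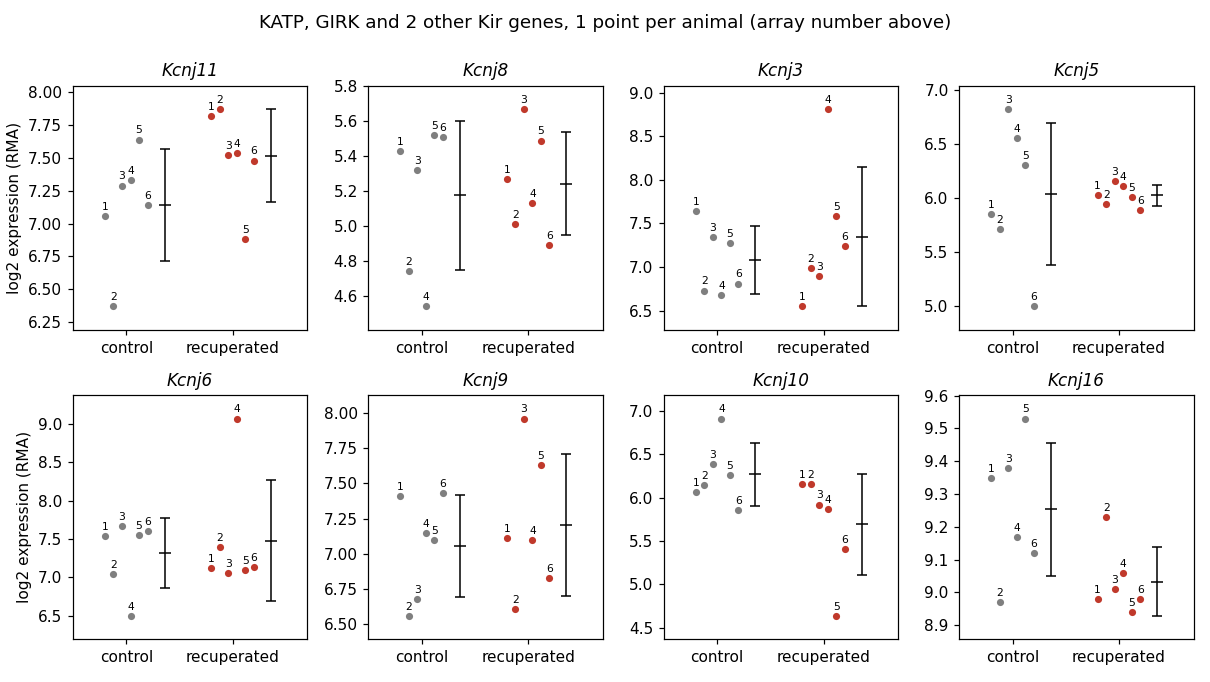
Log2 RMA level on each array, 1 point per animal with the array number above it, for the KATP pores Kcnj11 and Kcnj8, the GIRK genes Kcnj3, Kcnj5, Kcnj6 and Kcnj9, and the inward rectifiers Kcnj10 and Kcnj16; bars give mean and SD (n = 6) and the axes do not start at 0. Kcnj10 is lowest on recuperated array 5 at 4.64, and Kcnj3 and Kcnj6 are highest on recuperated array 4 at 8.81 and 9.07.

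GIRK channels are tetramers of Kcnj3, Kcnj5, Kcnj6 and Kcnj9 subunits, and 3 of the 4 genes were above the array median on 12 of 12 arrays. None passed the threshold between the groups. Kcnj6 ranged from 6.50 to 7.67 on control arrays (median 7.55) and from 7.06 to 9.07 on recuperated arrays (median 7.13). Recuperated array 4 was 1.40 above the next array, whereas the other 5 recuperated arrays lay within the control range. The log2 fold change of Kcnj6 was 0.14 (SE 0.32, exact permutation p = 0.79), and -0.17 without that array. Kcnj3 was also highest on recuperated array 4, at 8.81 against 7.64 on the next highest array. Its fold change was 0.25 (SE 0.32, exact permutation p = 0.58), and -0.04 without that array. The other probe sets of Kcnj3 gave -0.11 and -0.03, so its direction depends on the probe set read.

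Kcnj9 was at 7.06 ± 0.36 in control and 7.21 ± 0.50 in recuperated rats (SD, n = 6), with a fold change of 0.13 (exact permutation p = 0.619). Kcnj5, above the array median on 3 arrays, spread from 5.00 to 6.82 in control and from 5.89 to 6.16 in recuperated rats. Every recuperated value of Kcnj5 thus lay inside the control range, and its fold change was -0.04 (exact permutation p = 0.911).

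The remaining 9 inward rectifiers had negative fold changes in 9 of 9 genes, where 60.3% of all genes were negative. They ranged from -0.60 to -0.05 with a median of -0.24, where the median over all genes was -0.04. Of the 9 genes, 4 were below the array median on 12 of 12 arrays. The count of negative fold changes was 9 of 9 as well without subtraction of array medians and with quantile normalization. It was 8 or 9 of 9 when any 1 array was left out, and these recounts reuse the same arrays. Kcnj10 was the 1 gene of the 9 past 1.3-fold with P under 0.05. Strong inward rectifiers of neurons and muscle (Kcnj2, Kcnj4, Kcnj12, Kcnj14), epithelial channels (Kcnj1, Kcnj13, Kcnj15) and the glial Kcnj10 with its partner Kcnj16 were all among them.

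Kcnj10 clears potassium into astrocytes and also serves oligodendrocytes. It ranged from 5.86 to 6.91 on control arrays with a median of 6.20, and from 4.64 to 6.16 on recuperated arrays with a median of 5.90. Recuperated arrays 5 and 6 lay below all controls, and the other 4 were inside the control range. The means were 6.27 ± 0.36 and 5.69 ± 0.58 (SD, n = 6), a log2 fold change of -0.60 (SE 0.25, 95% interval -1.13 to -0.07), or 1.51-fold lower. The P by limma was 0.0301, the adjusted p by limma 0.999 and the exact permutation p 0.039. Kcnj10 has 1 probe set here, above the array median on 2 of 12 arrays.

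The call of Kcnj10 rested on single arrays. Without recuperated array 5, whose value of 4.64 was 0.77 below the next array, the fold change was -0.39. That is still past 1.3-fold, but P was no longer under 0.05. The call was also lost without recuperated array 6 (-0.54), control array 3 (-0.58) or control array 4 (-0.47), and by the methods' t-test. Of 10 astrocyte markers 0 passed the threshold, 4 had positive and 6 negative fold changes, and their mean level above the array median was 4.89 to 5.04 on control arrays, 4.84 to 5.04 on recuperated arrays and 4.96 on recuperated array 5. All 10 were above the array median on 12 of 12 arrays. Of 9 oligodendrocyte markers 0 passed the threshold and 7 had negative fold changes. Their mean above the array median was 2.98 to 3.37 on control arrays, 2.91 to 3.00 on 5 recuperated arrays and 3.53 on recuperated array 4, and the part of these cells in the value of Kcnj10 was not tested.

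Kcnj16, which forms mixed channels with Kcnj10 in glia, exceeded the median of each of the 12 arrays. Its values ran from 8.97 to 9.53 on control arrays (median 9.26) and from 8.94 to 9.23 on recuperated arrays (median 8.995). Of the 6 recuperated arrays, 5 lay at or below 9.06, and 1 lay below all controls. Its fold change was -0.24 (SE 0.12), with P = 0.0567 by limma and an exact permutation p of 0.0303, and its second probe set gave -0.02. Kcnj13, a channel of choroid plexus and retinal pigment epithelium, was at 5.25 ± 0.34 and 4.91 ± 0.36 (SD, n = 6), a fold change of -0.37 (SE 0.19, exact permutation p = 0.106).

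The promoters of 4 of the Kcnj genes described above are shown: Kcnj10 and Kcnj16 are the glial pair, Kcnj8 is a KATP pore and Kcnj6 a GIRK gene. Of these 4, Kcnj10 alone passed the threshold between the groups. Each runs from 250 bases before to 50 bases after the annotated start in RefSeq (assembly GRCr8), 5′ to 3′ on the gene's strand. Kcnj10 lies at chr13:87334260-87334559 (+), Kcnj16 at chr10:96517074-96517373 (+), Kcnj8 at chr4:177246499-177246798 (-) and Kcnj6 at chr11:47778299-47778598 (-). Capitals mark GC boxes, searched as GGGCGG on both strands.
Kcnj10: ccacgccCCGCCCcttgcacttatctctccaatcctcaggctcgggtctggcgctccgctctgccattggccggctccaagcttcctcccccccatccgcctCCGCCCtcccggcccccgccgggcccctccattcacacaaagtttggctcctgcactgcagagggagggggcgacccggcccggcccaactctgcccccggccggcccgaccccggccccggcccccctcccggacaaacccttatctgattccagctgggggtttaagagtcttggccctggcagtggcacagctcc
Kcnj16: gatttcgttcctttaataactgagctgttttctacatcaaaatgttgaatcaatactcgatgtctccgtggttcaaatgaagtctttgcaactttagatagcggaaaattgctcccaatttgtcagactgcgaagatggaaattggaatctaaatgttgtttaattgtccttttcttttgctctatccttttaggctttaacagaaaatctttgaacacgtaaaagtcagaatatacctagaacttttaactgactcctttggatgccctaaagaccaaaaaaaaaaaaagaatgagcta
Kcnj8: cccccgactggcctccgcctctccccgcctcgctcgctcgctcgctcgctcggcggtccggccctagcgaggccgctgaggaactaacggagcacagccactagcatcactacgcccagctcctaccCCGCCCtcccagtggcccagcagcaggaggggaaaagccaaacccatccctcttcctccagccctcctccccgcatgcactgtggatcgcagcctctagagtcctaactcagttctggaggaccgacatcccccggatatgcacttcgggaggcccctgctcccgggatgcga
Kcnj6: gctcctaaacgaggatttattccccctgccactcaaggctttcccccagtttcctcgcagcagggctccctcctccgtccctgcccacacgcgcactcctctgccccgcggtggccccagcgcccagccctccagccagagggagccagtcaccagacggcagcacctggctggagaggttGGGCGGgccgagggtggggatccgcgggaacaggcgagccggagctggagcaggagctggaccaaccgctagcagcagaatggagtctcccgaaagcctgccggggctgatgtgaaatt

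The Kcnj10 promoter held 2 GC boxes, 20 CG pairs and 70.3% G and C, whereas that of its partner Kcnj16 held no GC box, 6 CG pairs and 34.0% G and C. Kcnj8 had 1 GC box with 23 CG pairs, and Kcnj6 1 GC box with 18. Promoters were found for 52 of the 75 genes, 58 in all since some genes had several starts. Their median was 15 CG pairs and 62.0% G and C, against 7 and 51.7% over all 33469 promoters of this length. A GC box was present in 56.9% of member promoters and 33.06% of all. The other motifs searched on both strands were TATAAA, in 3.45% of member promoters and 14.22% of all, CACGTG in 5.17% and 6.42%, TGACGTCA in 0% and 1.83%, and TTCAGCACC, a part of the REST site, in 1.72% and 0.36%. The motifs were searched one by one and a match describes these letters alone.

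The voltage-gated pores and their partners held 0 genes past the threshold in either direction. Among the Kcna genes 4 of 6 fold changes were positive, and among the Kcnc and Kcnd genes 1 of 3 each, where 39.7% of all genes were positive. Kcnd2 ranged from 9.03 to 9.98 in control and from 9.48 to 10.03 in recuperated rats, with a fold change of 0.07 (SE 0.16, exact permutation p = 0.69). Kcna6 had a fold change of -0.25 (SE 0.16, exact permutation p = 0.156), Kcnc2 of -0.14 and Kcnip4 of -0.08. Kcnb2, a pore of the slow delayed rectifier, was at 5.60 ± 0.31 in control and 6.02 ± 0.54 in recuperated rats (SD, n = 6), a fold change of 0.40 (SE 0.23, exact permutation p = 0.162). Recuperated arrays 4 and 5 lay above all controls, and the fold change was 0.22 without array 4.

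The Kcnh genes, relatives of the ether-a-go-go channel, held the positive fold change with the smallest P by limma of the whole set, that of Kcnh4. Kcnh4 ranged from 3.92 to 4.85 on control arrays (median 4.21) and from 4.15 to 5.26 on recuperated arrays (median 4.79). For 2 recuperated arrays the value lay above all controls, and the gene was below the array median on 12 of 12. Its fold change was 0.41 (SE 0.21, 95% interval -0.04 to 0.85), with an exact permutation p of 0.0974. Kcnh4 was past the threshold, at a fold change of 0.42, when the arrays were quantile normalized again.

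Fold changes were negative in 3 of 3 Kcnn genes and 8 of 11 Kcnk genes, where 60.3% of all genes were negative, with 0 past the threshold. Kcnk1, a weak inwardly rectifying leak channel, ranged from 4.87 to 5.38 in control (median 5.11) and from 4.38 to 5.25 in recuperated rats (median 4.72). Below all controls lay 4 of the 6 recuperated arrays. Its fold change was -0.35 (SE 0.17, exact permutation p = 0.0649), and its level was below the array median on 12 of 12. Kcnk5, a leak channel sensitive to alkali, also had 4 recuperated arrays below all controls, at 5.37 ± 0.28 and 5.10 ± 0.22 (SD, n = 6), a fold change of -0.30 (exact permutation p = 0.0887).

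Kcnn1, an SK channel, was at 4.98 ± 0.17 in control and 4.77 ± 0.13 in recuperated rats (SD, n = 6), a fold change of -0.22 (SE 0.12), with an exact permutation p of 0.0411 and P = 0.0841 by limma. Kcnmb1, the BK subunit of smooth muscle, was at 3.88 ± 0.31 and 3.55 ± 0.29, a fold change of -0.35 (SE 0.18, exact permutation p = 0.0801). Both genes were dim, below the array median on 12 of 12 arrays. Of 11 markers of endothelium and mural cells, 5 had positive and 6 negative fold changes, with a median of -0.05. Tagln of smooth muscle was the 1 marker lower past the threshold, and 0 were higher. The mean of the list was 0.23 to 0.55 above the array median on control arrays and -0.03 to 0.66 on recuperated arrays. The part of vascular cells in the value of Kcnmb1 was not tested. Kcnk9, Kcnma1 and Kcnn3 had fold changes of -0.04, 0.27 and -0.10, or -0.07, 0.08 and -0.09 without recuperated array 4.

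Recuperated array 4 held the highest value of 26 members, or 34.7%, against 13.2% of all genes with 1 symbol, and the lowest value of 3, or 4.0%, against 17.6%. The 3 lowest there were Kcna5, Kcnc2 and Kcnj15. No other array held the highest value of more than 7 members. Among the 30 members above the array median on 6 arrays or more, 14 were highest on array 4, and counted over all 126 probe sets the share was 38, or 30.2%, a count added after the data were seen. Recuperated array 5 held the lowest value of 18.7% of members and 16.0% of genes, and control array 6 of 14.7% and 10.3%.

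**Figure D4:**
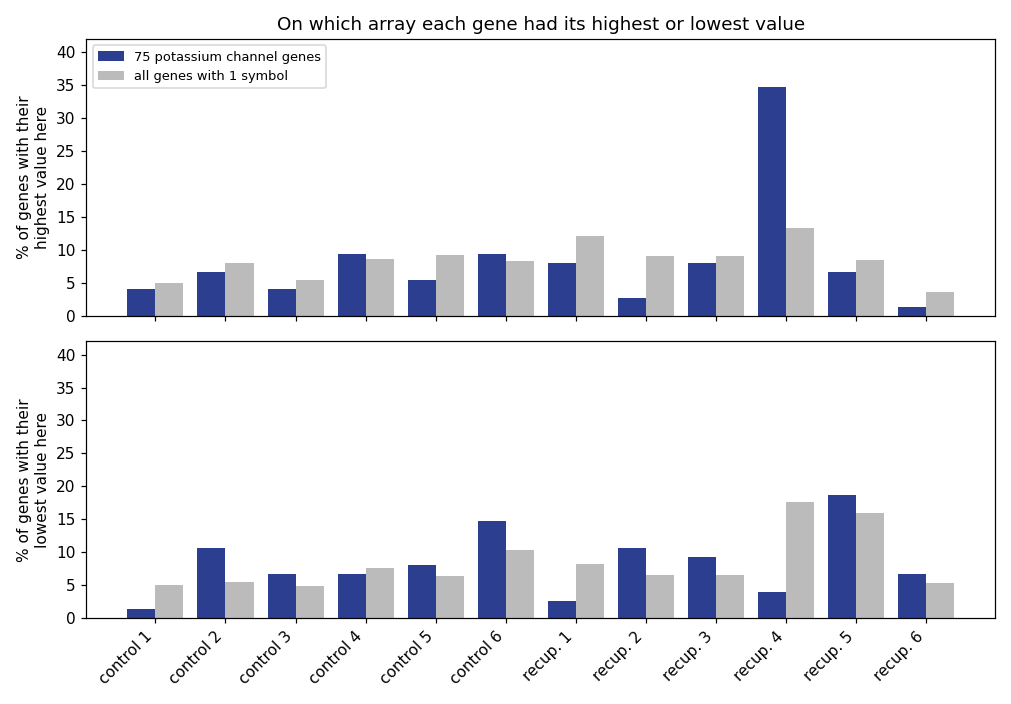
Share of genes, in percent, whose highest value (upper panel) or lowest value (lower panel) fell on each of the 12 arrays, for the 75 potassium channel genes (blue) and all 14217 genes with 1 symbol (grey). Recuperated array 4 holds the highest value of 34.7% of the potassium channel genes and 13.2% of all genes.

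By family, the highest value lay on array 4 for 4 of 6 Kcna, 2 of 3 Kcnab, 2 of 3 Kcnm, 2 of 3 Kcnq and 2 of 4 GIRK genes, 3 of 8 Kcnh genes and 3 of 11 Kcnk genes. It did so for 0 of 4 Kcne, 0 of 3 Kcnn and 0 of 2 KATP genes. On array 4, 11 members were more than 0.5 and 6 more than 1 log2 above all other arrays. These gaps were not counted over all genes, so the 2 counts have no background share. The 8 members with the widest gap of any to the other 11 arrays were all highest there.

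Kcnq3, which forms the M-channel with other Kcnq subunits, had the widest gap. It ranged from 5.30 to 6.39 on control arrays (median 5.64) and from 5.48 to 8.12 on recuperated arrays (median 5.88), and array 4 was 1.54 above the next array. The fold change of Kcnq3 was 0.57 (SE 0.37, exact permutation p = 0.206), the most positive of the set, and it was 0.21 without array 4. Its second probe set gave -0.07.

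Kcna1 and Kcna2, pores of axons and nerve terminals that are neighbours of other Kcna genes in the genome, came next with Kcnj6. Kcna1 was at 9.75 on array 4 and between 6.34 and 8.31 on the other 11, and its fold change was 0.09 (SE 0.45), or -0.28 without array 4. Kcna2 was at 8.79 on array 4 and between 5.79 and 7.48 elsewhere, with a fold change of 0.36 (SE 0.34), or 0.06 without it. Both probe sets of Kcna2 were highest on array 4.

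Kcnmb4, the BK subunit of neurons, was at 8.18 on array 4 and at most 7.17 elsewhere. Kcnh5 and Kcnh1, both ether-a-go-go pores, reached 9.0 and 6.66 there, each 0.93 above the next array. Kcnh5 had the widest spread of the set, since recuperated arrays 1 and 3 were also below all controls, down to 5.62, and the other 4 recuperated arrays gave values from 7.64 upwards.

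**Figure D5:**
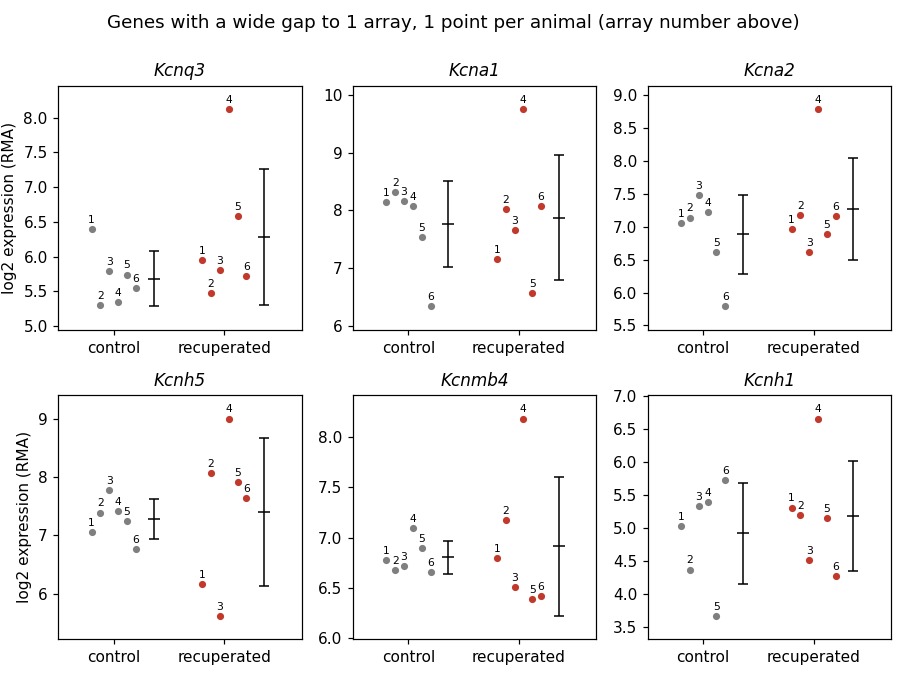
Log2 RMA level on each array, 1 point per animal with the array number above it, for Kcnq3, Kcna1, Kcna2, Kcnh5, Kcnmb4 and Kcnh1; bars give mean and SD (n = 6) and the axes do not start at 0. Recuperated array 4 is the highest point in each panel, 0.93 to 1.54 above the next array.

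The same array differed in its cell and region markers. Besides the VMN and ARC lists, 6 of 12 neuron markers and 5 of 9 oligodendrocyte markers were highest on array 4, while 8 of 10 tanycyte and ependyma markers and 6 of 10 microglia markers were lowest. The mean of the neuron list was 5.00 above the array median there and 4.61 to 4.92 on the other arrays, and that of the oligodendrocyte list 3.53 against 2.91 to 3.37. Tanycyte and ependyma markers were at 0.11 against 1.06 to 1.68, and microglia markers at 0.41 against 0.87 to 1.39. The part that these levels play in the channel values of array 4 was not tested.

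Without recuperated array 4, 25 members had positive and 50 negative fold changes, so that 66.7% were negative against 57.8% of all genes, with a median of -0.07 where that of all genes was -0.03. At 1.3-fold and P under 0.05 by limma 4 members were then lower, where 1.13% of genes were, and 0 higher, where 0.879% were. The 4 were Kcnj10 at -0.63, Kcnj12 at -0.54, Kcnj13 at -0.49 and Kcnk1 at -0.42, of which Kcnj12, a strong inward rectifier, was named after its values were seen. With the array included Kcnj12 had its highest value on it, at 6.69, and a fold change of -0.33 (exact permutation p = 0.301).

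Genes whose products work with the channels without belonging to them were read from a list of 30, of which 24 were measured. None passed 1.3-fold with P under 0.05, 11 fold changes were positive and 13 negative, and their median was -0.01. Lgi1, a secreted protein that keeps Kcna channels from inactivating, had the smallest p: it ranged from 4.91 to 7.11 on control and from 6.68 to 7.59 on recuperated arrays, with a fold change of 0.60 (SE 0.32, exact permutation p = 0.102). Control array 6 was 1.33 below the next array, and 3 recuperated arrays lay above all controls. Lrrc26, an auxiliary subunit of BK channels, was at 3.94 ± 0.36 and 3.63 ± 0.33 (SD, n = 6), a fold change of -0.33 (exact permutation p = 0.149). The highest value lay on recuperated array 4 for 11 of the 24 partners, and for 13.2% of all genes with 1 symbol.

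Potassium is also moved by the sodium pump and by cotransporters, and 6 of 10 such genes were measured. None passed the threshold, and 3 fold changes were positive and 3 negative. Atp1b2, the pump subunit of glia, ranged from 10.90 to 11.52 in control and from 10.83 to 11.12 in recuperated rats, with a fold change of -0.16 (SE 0.13, exact permutation p = 0.21). Atp1b1, the widely expressed pump subunit, had a fold change of 0.08 (exact permutation p = 0.519), and -0.0010 without recuperated array 4.

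Genes read by several probe sets gave a measure of how far a value rests on the probe set chosen. For 31 members with more than 1 probe set the mean levels of the sets differed by a median of 1.60 log2, and by up to 5.87 for Kcnip1, a calcium-binding partner of Kcnd channels. In 17 of the 31 all probe sets gave a fold change of the same sign. The median difference between the fold change of another probe set and that of the one used was 0.11, close to the median size of 0.13 that members showed between the groups.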

How the data were processed

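The log2 values of 31099 probe sets on 12 arrays were deposited as 1 table that the authors made by RMA, which corrects background, quantile normalizes the probes and summarises them by median polish. Expression Console of Affymetrix is named with RMA in the submitters' processing notes, the methods name GeneSpring GX, and the version of Expression Console is not given in the sources used here. GCOS and GC-RMA values were not analysed here.

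After 57 Affymetrix control probe sets had been set aside, each array was centred on its median over the remaining 31042. Groups came from the sample labels. The fit of recuperated against control arrays covered all 31042 probe sets, by lmFit and eBayes (limma 3.58.1, R 4.3.3), had no covariates and was adjusted by Benjamini-Hochberg. A gene passed the study's threshold at 1.3-fold and P under 0.05 in that fit. Single genes were also compared by an exact permutation test, two-sided, over the 924 ways to divide the arrays, which cannot give a p below 0.00216. Python 3.11.15 with pandas 2.3.3, numpy 2.4.6 and matplotlib 3.10.9 made the tables and plots.

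The array annotation gave 1 symbol to 20826 probe sets, several to 436 and none to 9780, and those without a single symbol were not named. Since no source gives a genome build for the arrays, coordinates are those of RefSeq promoters on GRCr8. The genes named were the KATP and GIRK genes with Abcc8 and Abcc9, members past the threshold, the 10 with the smallest p, the highest signal of each family, the 8 with the widest gap between 1 array and the rest, and the 2 genes with the smallest p of each partner list. The members and lists were chosen with earlier results of these data known.

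Alternatives were values without centring, quantile normalization, a filter that kept probe sets above the array median on 6 arrays or more, the methods' t-test, weights for array quality, a block for the animal number, linear means, averaging over the probe sets of a gene, and leaving out each array. Values of each other probe set, and extremes counted over all probe sets, were chosen after seeing the data. Simulated data with known changes were used to test the fit. Same-numbered arrays did not deviate together: 0 of 6 pairs had a correlation over 0.1, so the numbers were not taken as pairs. Arrays give no read depth, and their number limits the precision. The study gives 6 chips per group and counts litters as n, while the sample labels name no litter. The p-values set the difference of the groups against the spread between the animals within them.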

Additional observations from a re-analysis of the deposited data

Results flagged for a closer look

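In 8 of 150 groups of 6 arrays (75 genes in 2 groups), or 5.33%, 1 array lay farther from the others than Dixon's test allows at the 95% level, where chance alone gives about 1 in 20. Kcna2 was at 8.79 on recuperated array 4, and at 6.62 to 7.18 on the other recuperated arrays. Kcnj6 was at 9.07 on the same array and at 7.06 to 7.40 on the others. Kcnd2 was at 9.03 on control array 6 and at 9.64 to 9.98 on the other controls, and Kcnip1 at 7.90 on that array and at 8.68 to 9.05 on the others. Kcnk5 was highest there, at 5.90 against 5.11 to 5.39. Kcnh6 was at 7.11 on control array 5 and at 5.89 to 6.23 on the other controls. Kcnk6 was at 6.48 on recuperated array 5 and at 5.17 to 5.39 on the other recuperated arrays. Kcnq1 was at 3.68 on recuperated array 1 and at 3.32 to 3.45 on the others.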

How the results depend on the processing

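Of 408 values recomputed for 21 genes, 352 kept their direction and side of the threshold, 5 lost the call (all of Kcnj10), 21 gained one and 30 changed sign; the cause was not tested. The median log2 fold change of members was -0.04, but 0.06 among the 30 members kept by the filter on dim probe sets. It was 0.0093 without recuperated array 2, so its sign is not settled. Each alternative stayed within 0.11 of it, the SD of the member median between recuperated arrays. That SD is a spread between single arrays and not the error of a group difference. Members higher past the threshold numbered 0, but 1 after quantile normalization (Kcnh4) and 0 to 2 when 1 array was left out. Those lower numbered 1, but 0 under that filter, 0 by the methods' t-test, 3 with array quality weights and 0 to 4 when 1 array was left out, with 4 without recuperated array 4 and 0 without control array 4 or recuperated array 6. Kcnj11 passed without control array 5 (0.46) or recuperated array 5 (0.48).

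With the animal number as a replicate block, 1 member was higher (Kcnh4) and 1 lower, and Lgi1 passed the threshold as well. The numbers do not pair the arrays, since 0 of 6 arrays correlated best with their own number.

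Fold changes of 8 genes changed sign in some settings. Abcc8 was at 0.0133 without median subtraction, 0.0009 after quantile normalization and 0.0232 from linear means, and Abcc9 at 0.0311 from linear means. Array quality weights gave -0.0244 for Kcnj8 and -0.0059 for Kcnj6. Leaving out 1 array gave -0.081 to 0.12 for Kcnj8, -0.044 to 0.40 for Kcnj3, -0.24 to 0.12 for Kcnj5, -0.17 to 0.23 for Kcnj6, -0.0187 to 0.26 for Kcnj9, -0.10 to 0.13 for Abcc8, -0.34 to 0.12 for Abcc9 and -0.0010 to 0.12 for Atp1b1. Signal over background limits the dim members: 31 of 75 lay below the array median on 12 of 12 arrays.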
